A study of Mus musculus with 22 samples.

Results

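Autosomal imprinted genes are transcribed mainly from the maternal or mainly from the paternal copy. A set of 42 such genes, 18 of them maternally and 24 paternally expressed, was followed by GENCODE symbol among the 52636 genes of the table, in RNA from fully-grown germinal vesicle-intact (GV) mouse oocytes. All 42 symbols matched 1 gene each, in 18 domains on 10 chromosomes. The direction of imprinting was taken from general knowledge of these domains in embryonic and adult tissues. No allele was measured here, and a growing oocyte carries female marks on both of its copies.

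Imprinted domains are switched by control regions that are methylated in only 1 of the germ lines. The oocyte places its marks while it grows, and at several domains this needs transcription across the control region from promoters used in oocytes. Of the 42 genes, 32 lie in 13 domains marked in the oocyte, such as Kcnq1, Igf2r, Peg3, Mest and Snrpn. Another 8 genes lie in 3 domains marked in the male germ line, among them H19-Igf2 and Dlk1-Meg3, and 2 genes were not assigned to either. Many products act on growth of the embryo and placenta. Igf2 encodes a growth factor, Igf2r the receptor that clears it, and Cdkn1c an inhibitor of cyclin-dependent kinases. Dicer makes the small interfering RNAs that oocytes use in RNA interference (RNAi), and Mili, encoded by Piwil2, binds piRNAs.

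All samples were C57BL/6 GV oocytes, and each library came from a small pool of oocytes. The single-end run held 3 samples of Dicer-WT/WT (wild type), 4 of Dicer-ΔMT/ΔMT, 3 of Dicer-SOM/SOM and a single one of the Dicer-ΔMT/WT heterozygote, with no ages in their labels. ΔMT removes the MT retrotransposon promoter that drives the truncated oocyte form of Dicer, while a further retrotransposon insertion can still give some of that form. SOM is an HA-tagged allele that lost several introns, was derived from 1 embryonic stem cell line and makes full-length Dicer only. In the paired-end run every female carried at least 1 mutant copy of both genes. The 4 controls were Mili-DAH/WT with Dicer-SOM/WT, aged 10, 17, 36 and 38 weeks. The 2 RNAi mutants were Mili-DAH/WT with Dicer-SOM/SOM, aged 13 and 17 weeks. The single piRNA mutant, 16 weeks old, was Mili-DAH/DAH with Dicer-SOM/WT. The 4 double mutants were Mili-DAH/DAH with Dicer-SOM/SOM, aged 11, 11, 35 and 40 weeks. DAH is a point mutation in the slicer site of the protein, and the level of the Piwil2 transcript is no check of it. Samples of 1 group with different ages came from different females. The labels do not say whether the single-end replicates or the 2 double mutants of 11 weeks did, and there p-values measure the spread between these samples, which may be technical. The study asked what loss of either pathway, or of both, does to the oocyte transcriptome.

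Total counts were 6468380 to 90713013 per sample in the single-end run and 22928936 to 43540806 in the paired-end run. The lowest was Dicer-SOM/SOM replicate 3. Dicer1 fell, with log2 fold changes of -1.06 for Dicer-ΔMT/ΔMT, -4.34 for Dicer-SOM/SOM, -3.46 for RNAi mutants and -3.47 for double mutants, the direction its labels give. The summed level of 15 oocyte markers was 14222 to 17992 CPM (counts scaled to the library size, itself scaled by TMM in edgeR) in every sample. In the same samples 15 granulosa and cumulus markers summed to 87.8 to 170.1 CPM, 12 theca and stroma markers to 1.998 to 27.8 CPM, and 13 blood and immune markers to 74.1 to 149 CPM, nearly all of it from Ighm and Ms4a1. Granulosa sums were 105.8 and 112.1 CPM in the RNAi mutants and 112.2 to 170.1 CPM in controls (exact two-sided permutation test, p = 0.133, smallest possible 0.0667). The blood sum was lower in Dicer-SOM/SOM than in Dicer-ΔMT/ΔMT (87.7 against 126 CPM on average, exact permutation p = 0.0286). It was 74.1 to 98.8 CPM in Dicer-SOM/SOM and 115 to 129.9 CPM in wild type, with no overlap (means 87.7 and 125 CPM, exact permutation p = 0.1, the smallest these 3 against 3 samples allow). The other comparisons of these sums did not pass 0.05. The paired-end libraries formed 2 sets by the rRNA-related gene Gm42418. It was at 4086 to 5503 CPM in both RNAi mutants, 2 of 4 controls and 2 of 4 double mutants, and at 294 to 557 CPM in the rest. In bulk RNA fewer cells of a type and less RNA per cell cannot be told apart.

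Promoters of 4 genes are printed here because these genes carry much of the change described below and differ in CpG content, the substrate of imprint methylation. The sequences, 300 bases each, are RefSeq promoters on GRCm38.p6 around the start of transcription, most of each window lying before it, written 5′ to 3′ on the gene's strand with each CpG in capitals. Slc22a18 and Phlda2 are neighbours in the Kcnq1 domain, Usp29 shares its promoter region with Peg3, and Igf2r faces the noncoding RNA Airn. Slc22a18 (chr7:143473539-143473838, + strand) holds 2 CpGs, Phlda2 (chr7:143502475-143502774, - strand) 26, Usp29 (chr7:6730333-6730632, + strand) 17, and Igf2r (chr17:12769657-12769956, - strand) 34.
Slc22a18: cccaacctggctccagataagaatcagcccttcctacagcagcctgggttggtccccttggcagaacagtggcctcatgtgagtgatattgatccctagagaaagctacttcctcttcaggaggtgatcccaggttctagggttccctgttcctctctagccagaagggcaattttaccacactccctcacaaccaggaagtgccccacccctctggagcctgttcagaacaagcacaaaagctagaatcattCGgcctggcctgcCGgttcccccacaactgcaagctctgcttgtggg
Phlda2: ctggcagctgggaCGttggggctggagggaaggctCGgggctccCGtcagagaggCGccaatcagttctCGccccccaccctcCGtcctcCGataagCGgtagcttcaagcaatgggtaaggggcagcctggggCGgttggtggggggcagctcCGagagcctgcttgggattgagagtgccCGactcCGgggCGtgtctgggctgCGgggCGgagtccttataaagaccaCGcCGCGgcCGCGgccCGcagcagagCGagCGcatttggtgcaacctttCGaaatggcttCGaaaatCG
Usp29: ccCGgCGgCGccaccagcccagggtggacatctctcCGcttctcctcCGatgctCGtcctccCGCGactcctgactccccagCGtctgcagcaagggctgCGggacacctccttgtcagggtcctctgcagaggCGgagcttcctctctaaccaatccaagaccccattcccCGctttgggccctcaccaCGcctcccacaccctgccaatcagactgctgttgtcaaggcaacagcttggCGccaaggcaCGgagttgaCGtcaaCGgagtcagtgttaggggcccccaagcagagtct
Igf2r: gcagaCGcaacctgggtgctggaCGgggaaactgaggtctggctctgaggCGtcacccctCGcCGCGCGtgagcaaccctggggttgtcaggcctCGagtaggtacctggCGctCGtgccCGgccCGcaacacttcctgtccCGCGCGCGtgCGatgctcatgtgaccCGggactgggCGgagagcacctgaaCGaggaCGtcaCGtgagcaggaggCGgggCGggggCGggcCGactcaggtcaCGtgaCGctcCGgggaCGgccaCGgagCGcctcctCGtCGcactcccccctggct

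The table held promoters for 33 of the 42 genes, 51 in all, with a median of 13 CpGs against 7 over all 32851 promoters. The Usp29 and Peg3 windows shared 263 bases on opposite strands. The letters TGCCGC, the core of the motif that the imprint-protecting zinc finger protein ZFP57 reads when methylated, were searched on both strands. They stood in 14 of the 51 promoters (27.5%) and in 11.6% of all promoters searched. The motif itself holds a CpG, and the windows of members held more CpGs at the median. None of the 4 printed windows held the motif. Windows of other members did, among them Mest, Grb10, Igf2, Meg3, Nnat, Plagl1, Snrpn and Zdbf2. Several of the 51 windows overlap each other, so these are descriptions of letters, not counts of independent sites.

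Of the 42 genes, 8 contain hairpins of microRNAs on their own strand, from 1 each in H19, Igf2, Usp29, Mest, Meg3 and Rtl1 to 3 in Rian and 14 in Mirg. Microprocessor and Dicer cut microRNAs from such transcripts. Mature sequences (RefSeq, GRCm38.p6) are given for the 3 hosts whose transcripts are called below, with the seed (bases 2 to 8) in capitals. The 6 seeds all differ. The levels of the microRNAs were not analysed here.
miR-335-5p: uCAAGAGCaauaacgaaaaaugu
miR-335-3p: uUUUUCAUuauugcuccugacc
miR-3099-5p: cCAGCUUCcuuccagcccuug
miR-3099-3p: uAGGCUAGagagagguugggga
miR-483-5p: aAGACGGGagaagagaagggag
miR-483-3p: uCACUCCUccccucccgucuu
miR-335 lies in Mest (5p at chr6:30741314-30741336), miR-3099 in Usp29 (5p at chr7:6803600-6803620) and miR-483 in Igf2 (5p at chr7:142654968-142654989).

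Imprinted genes spanned a wide range of oocyte transcript levels. Per length (RPKM, CPM divided by exonic length in kb), the paternally expressed Mest, a hydrolase-like protein of the endoplasmic reticulum, stood highest at 93.7 ± 7.45 (SD, n = 3) in wild type and 91.8 ± 5.63 (SD, n = 4) in controls, the percentiles 97.3 and 97.1 of all genes tested. Blcap followed, with 36.1 ± 3.57 (SD, n = 3) in wild type. Then came H13, a signal peptide peptidase, Igf2r, Copg2, a coat protein subunit, Gnas, a G protein subunit, and Grb10, an adaptor that dampens insulin signalling, at 13.0 to 19.2 RPKM. Samples of Copg2, Igf2r and Gnas overlapped one another in controls. In wild type Copg2 overlapped both of the others, while Igf2r lay above Gnas. H13 stood with them in wild type but lower in controls, at 11.4 ± 1.18 (SD, n = 4). All 6 that followed Mest are maternally expressed.

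Of the 18 maternally expressed genes, 15 had a mean of at least 1 CPM and 9 of at least 10 CPM in wild type. Of the 24 paternally expressed genes, 12 and 5 did. In controls the maternal counts were 15 and 10 and the paternal counts 12 and 5. Peg3, a zinc finger protein, was at 6.37 ± 0.280 (SD, n = 3) RPKM and Snrpn, a splicing protein, at 4.89 ± 0.622 (SD, n = 3) RPKM in wild type. The long noncoding Kcnq1ot1, a transcript of great exonic length, was at 0.0387 ± 0.00586 (SD, n = 3) RPKM.

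The same 8 genes failed the filter on low counts in both runs. Mkrn3 had 0 counts in all 22 samples, which allows up to 0.0355 to 0.435 CPM in single-end and 0.0677 to 0.130 CPM in paired-end samples (3 counts, counting error only, because amplified reads lacking molecular identifiers do not stand for separate molecules). H19, a noncoding RNA abundant in embryos, had at most 9 counts in any sample. Ndn had at most 13, Rtl1 12, Mirg 9, Dlk1 6, Ddc 5 and Magel2 4. The remaining 34 genes, 16 maternally and 18 paternally expressed, were tested in each run.

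**Figure D1:**
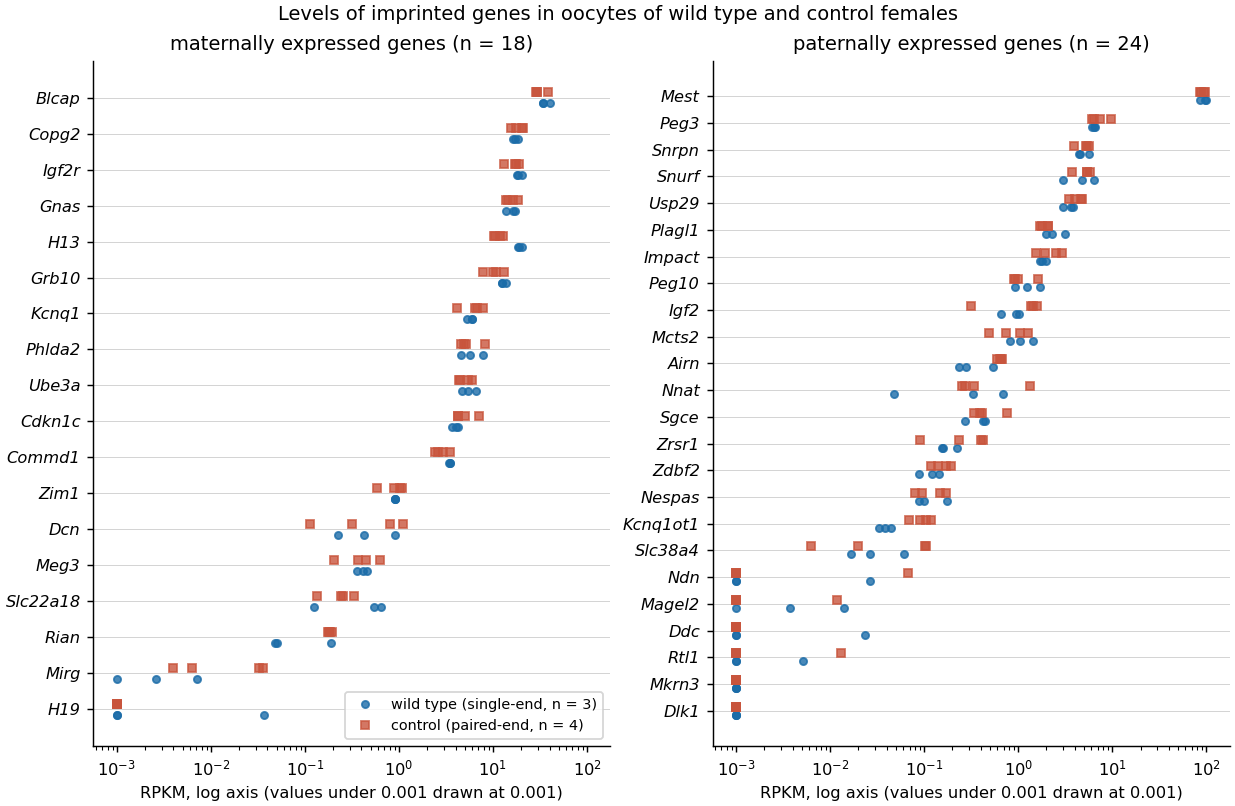
RPKM on a log axis for each maternally expressed (left) and paternally expressed (right) gene, with 1 point per sample of wild type (blue circles, single-end) and control (red squares, paired-end). Mest stood above all others in every sample, and the 8 genes that were not tested reached the left edge, at or near 0, in at least 1 sample.

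The first comparison asked which of these genes moved when oocytes lost the main promoter of the oocyte form of Dicer. In Dicer-ΔMT/ΔMT against wild type, 4 of 34 rose (background: 8.06% of 23151 genes tested rose) and 4 fell (background 7.3%) at an adjusted p under 0.05, from the quasi-likelihood test of edgeR with p-values adjusted by Benjamini-Hochberg over all genes. Slc22a18, Cdkn1c, Igf2 and Sgce rose, and Igf2r, Usp29, Impact and Blcap fell. Each direction held 2 maternally and 2 paternally expressed genes. The median log2 fold change was -0.00 over the 16 maternally expressed genes, 0.01 over the 18 paternally expressed ones and 0.01 over all genes tested.

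In Dicer-SOM/SOM against the same wild type samples, which ties the results of both comparisons, 6 of 34 rose (background 14.5%) and 2 fell (background 14.2%). Slc22a18, Cdkn1c, Phlda2, Igf2, Sgce and Slc38a4 rose, and Igf2r and Kcnq1 fell. Of the 16 maternally expressed genes 3 rose and 2 fell, and of the 18 paternally expressed ones 3 rose and 0 fell. Of the latter, 5 had an unadjusted p under 0.05 in either direction, beside 9229 of all 23151 genes tested. The medians were 0.03 for the maternally and 0.17 for the paternally expressed genes, and 0.02 for all genes. The blood marker sum, nearly all of it from Ighm and Ms4a1, was also lower in Dicer-SOM/SOM than in wild type in every sample. Of its 5 markers tested singly, 1 was called lower and 0 higher, with a median log2 fold change of 0.31. The fall of the sum is thus not shared by most of these markers, and its part in these changes was not tested.

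In RNAi mutants against controls, 4 of 34 rose (background 7.07% of 20989 genes tested) and 2 fell (background 3.64%). Slc22a18, Phlda2, Cdkn1c and Mest rose, and Kcnq1ot1 and Usp29 fell. In double mutants against the same, shared controls, 4 rose (background 12.3%), namely Slc22a18, Phlda2, Peg10 and Cdkn1c, and 2 fell (background 8.84%), namely Igf2r and Ube3a. The class medians lay within 0.09 of 0 in both comparisons.

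The Kcnq1 domain on distal chromosome 7 held 3 of the genes called in at least 3 comparisons, namely Cdkn1c, Slc22a18 and Phlda2. In oocytes its control region is methylated at the promoter of Kcnq1ot1, a noncoding RNA that silences neighbouring genes on the paternal copy elsewhere in the body. Slc22a18, an organic cation transporter (chr7:143473736-143499334), is the member with the few-CpG promoter printed above. It was at 0.208, 0.913 and 1.06 CPM in wild type, 3.63, 2.41, 3.72 and 4.19 CPM in Dicer-ΔMT/ΔMT and 2.61, 3.32 and 5.37 CPM in Dicer-SOM/SOM. In the paired-end run it was at 0.221, 0.400, 0.555 and 0.427 CPM in controls, 1.82 and 2.03 CPM in RNAi mutants and 1.59, 1.13, 1.06 and 1.96 CPM in double mutants.

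Every sample homozygous for a Dicer mutation lay above every wild type or control sample of its run. The rise was 4.82-fold (log2 fold change 2.27 ± 0.44 (SE), adjusted p = 0.00624) in Dicer-ΔMT/ΔMT and 4.88-fold (log2 fold change 2.29 ± 0.48 (SE), adjusted p = 0.00467) in Dicer-SOM/SOM. It was 4.80-fold (log2 fold change 2.26 ± 0.41 (SE), adjusted p = 0.0024) in RNAi mutants and 3.57-fold (log2 fold change 1.84 ± 0.36 (SE), adjusted p = 0.00222) in double mutants. The RNAi call held with a term for the rRNA sets (log2 fold change 2.48, adjusted p = 0.00303). The double mutant call was lost among animals of at most 17 weeks (log2 fold change 1.60, adjusted p = 0.0749).

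Cdkn1c (chr7:143458339-143461050) rose by less but from a higher level. It was at 7.08, 7.82 and 8.26 CPM in wild type, 10.7, 13.0, 12.4 and 12.5 CPM in Dicer-ΔMT/ΔMT and 19.9, 16.2 and 15.1 CPM in Dicer-SOM/SOM. The 3 groups did not overlap, with Dicer-ΔMT/ΔMT between the others. The log2 fold change was 0.66 ± 0.13 (SE), adjusted p = 0.00575 in Dicer-ΔMT/ΔMT and 1.16 ± 0.14 (SE), adjusted p = 0.000115 in Dicer-SOM/SOM.

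In the paired-end run Cdkn1c was at 8.27, 9.70, 8.27 and 13.9 CPM in controls, 17.9 and 18.8 CPM in RNAi mutants and 18.4, 16.5, 20.6 and 13.3 CPM in double mutants. Control replicate 3 (13.9 CPM) reached the lowest double mutant (13.3 CPM), while the RNAi mutants lay above all controls. On the log2 scale the change was 0.87 ± 0.24 (SE), adjusted p = 0.0282 in RNAi mutants and 0.78 ± 0.20 (SE), adjusted p = 0.0117 in double mutants. The RNAi call did not hold with a term for the rRNA sets (0.71, adjusted p = 0.0602), within the set of high Gm42418 (0.74, adjusted p = 0.0795), or without either RNAi mutant or without control replicate 1o, 2o or 2 (adjusted p 0.0593 to 0.175). It was also lost with an age term (0.81, adjusted p = 0.0761), and among animals of at most 17 weeks neither the RNAi call (0.72, adjusted p = 0.224) nor the double mutant call (0.63, adjusted p = 0.259) held. An antisense gene shares 30.3% of the exonic bases of Cdkn1c, and unstranded counting cannot part them.

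Phlda2 (chr7:143501545-143502541), which encodes a small protein that restrains placental growth, has a CpG-rich promoter next to Slc22a18. It was at 3.44, 4.33 and 5.99 CPM in wild type, 6.15, 7.15, 6.31 and 6.48 CPM in Dicer-ΔMT/ΔMT and 6.95, 8.41 and 20.3 CPM in Dicer-SOM/SOM. Dicer-SOM/SOM replicate 3, the shallowest library, had more than its fellows, and the other mutant samples of the run lay just above the highest wild type sample. Its fitted log2 fold change was 1.28 ± 0.35 (SE), adjusted p = 0.0184 in Dicer-SOM/SOM, lost without wild type replicate 1 or 2 (adjusted p = 0.0669 and 0.06). Without Dicer-SOM/SOM replicate 3 it was 0.75 (adjusted p = 0.0254). In Dicer-ΔMT/ΔMT it was 0.51 ± 0.32 (SE), adjusted p = 0.317, which was not called.

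In controls Phlda2 was at 3.76, 6.30, 3.88 and 3.45 CPM, in RNAi mutants at 8.22 and 9.33 CPM and in double mutants at 7.12, 14.1, 12.4 and 13.5 CPM. All of these Dicer mutants lay above all controls. The log2 fold change was 1.01 ± 0.29 (SE), adjusted p = 0.0417 in RNAi mutants and 1.44 ± 0.25 (SE), adjusted p = 0.000953 in double mutants. The double mutant call held under every alternative, and the RNAi call was lost without either RNAi mutant or without control replicate 1o, 2 or 3 (adjusted p 0.0815 to 0.24), and with an age term (1.05, adjusted p = 0.0811).

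Kcnq1, a potassium channel whose gene spans the control region, moved the other way in 1 comparison. It was at 16.0, 18.2 and 18.01 CPM in wild type and 11.9, 13.8 and 14.2 CPM in Dicer-SOM/SOM, which did not overlap (log2 fold change -0.40 ± 0.12 (SE), adjusted p = 0.0284). The call was lost without wild type replicate 2 or 3 or Dicer-SOM/SOM replicate 1 (adjusted p 0.0743 to 0.0967). Kcnq1ot1 was at 5.78, 8.73, 7.71 and 9.90 CPM in controls, 3.37 and 3.93 CPM in RNAi mutants and 5.55, 6.34, 4.79 and 5.11 CPM in double mutants. Both RNAi mutants lay below all controls, while double mutants reached into the control range. The log2 fold change in RNAi mutants was -1.13 ± 0.26 (SE), adjusted p = 0.0115, lost without RNAi mutant 1 (adjusted p = 0.134) or 2 (0.0774). Wild type had 2.77 to 3.76 CPM and Dicer-SOM/SOM 3.21, 3.61 and 1.74 CPM, which overlapped. The change of Kcnq1ot1 with Dicer-SOM/SOM was not shown to differ between the runs (difference in log2 fold change 0.99 ± 0.38 (SE), adjusted p = 0.577). Kcnq1ot1 lies wholly within Kcnq1 on the opposite strand, and counting without strand cannot part it from unspliced Kcnq1 RNA.

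**Figure D2:**
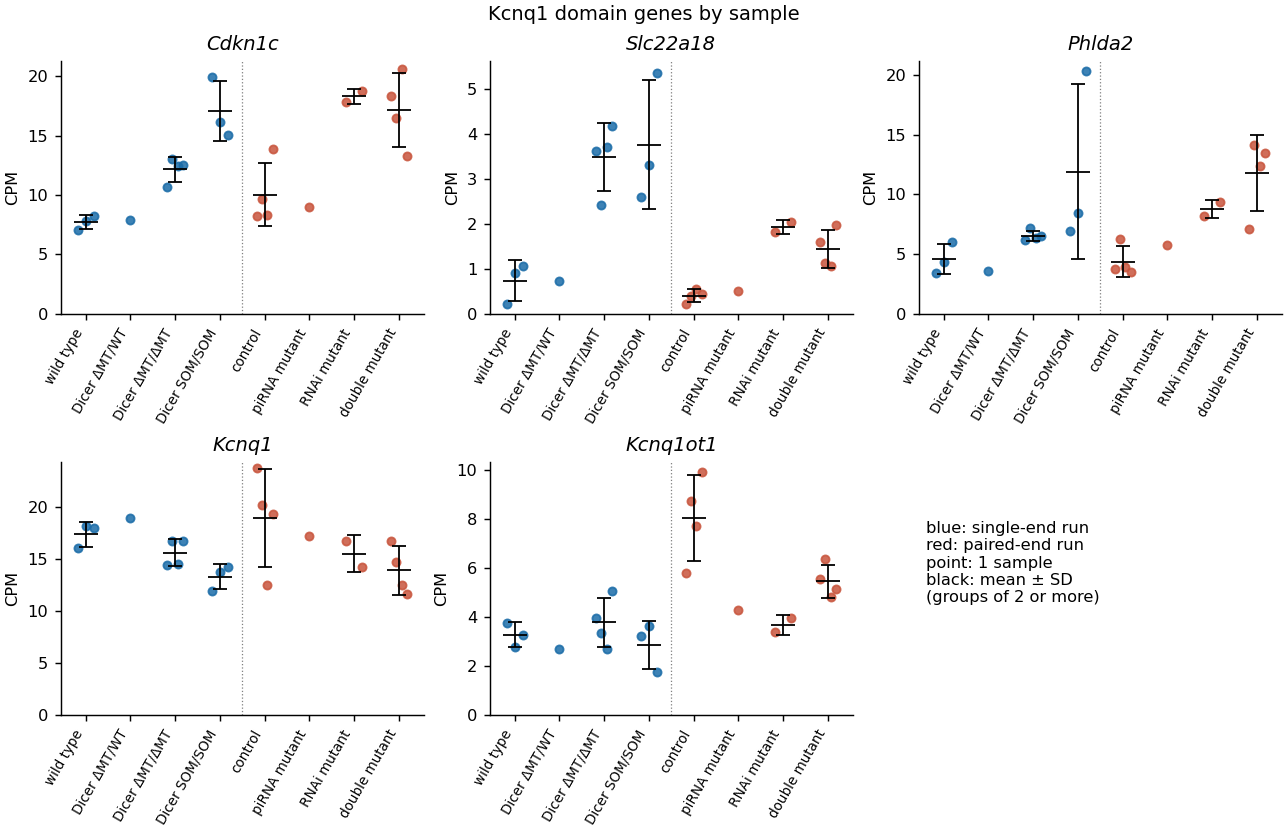
CPM in every sample (points) with mean ± SD (black) for 5 genes of the Kcnq1 domain, in the single-end run (blue, left of the dotted line) and the paired-end run (red). Slc22a18 was at 0.208 to 1.06 CPM in wild type and 2.41 to 5.37 CPM in both Dicer mutants, and Kcnq1 and Kcnq1ot1 did not share its rise.

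Of the genes that rose, Cdkn1c, Slc22a18 and Phlda2 lay close together. Others that rose in some comparisons lay elsewhere, such as Sgce, Peg10 and Mest on chromosome 6 and Slc38a4 on chromosome 15. Within 1 Mb of the Kcnq1ot1 start lay 7 of the 42 genes and 10 further imprinted genes from a wider list. The 3 genes that rose in both RNAi and double mutants start 164.5 kb (Cdkn1c), 177.2 kb (Slc22a18) and 206.0 kb (Phlda2) beyond the Kcnq1ot1 start. Of the 9 further genes tested in the single-end run, 1 rose and 1 fell in Dicer-SOM/SOM (background 14.5% and 14.2%). In Dicer-ΔMT/ΔMT 0 rose and 1 fell (background 8.06% and 7.3%). Of the 8 tested in the paired-end run, 0 were called in RNAi mutants (background 7.07% higher and 3.64% lower). In double mutants 0 rose and 2 fell (background 12.3% and 8.84%). Th, encoding tyrosine hydroxylase, fell in 3 of these 4 comparisons, with log2 fold changes of -0.31 in Dicer-ΔMT/ΔMT, -0.71 in Dicer-SOM/SOM and -0.54 in double mutants, and -0.51 in RNAi mutants (adjusted p = 0.0579). Nap1l4, the next gene of this wider list beyond Phlda2, was not called in any of the 4 (log2 fold changes -0.23 to -0.37). These neighbours were named after their values were seen.

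**Figure D3:**
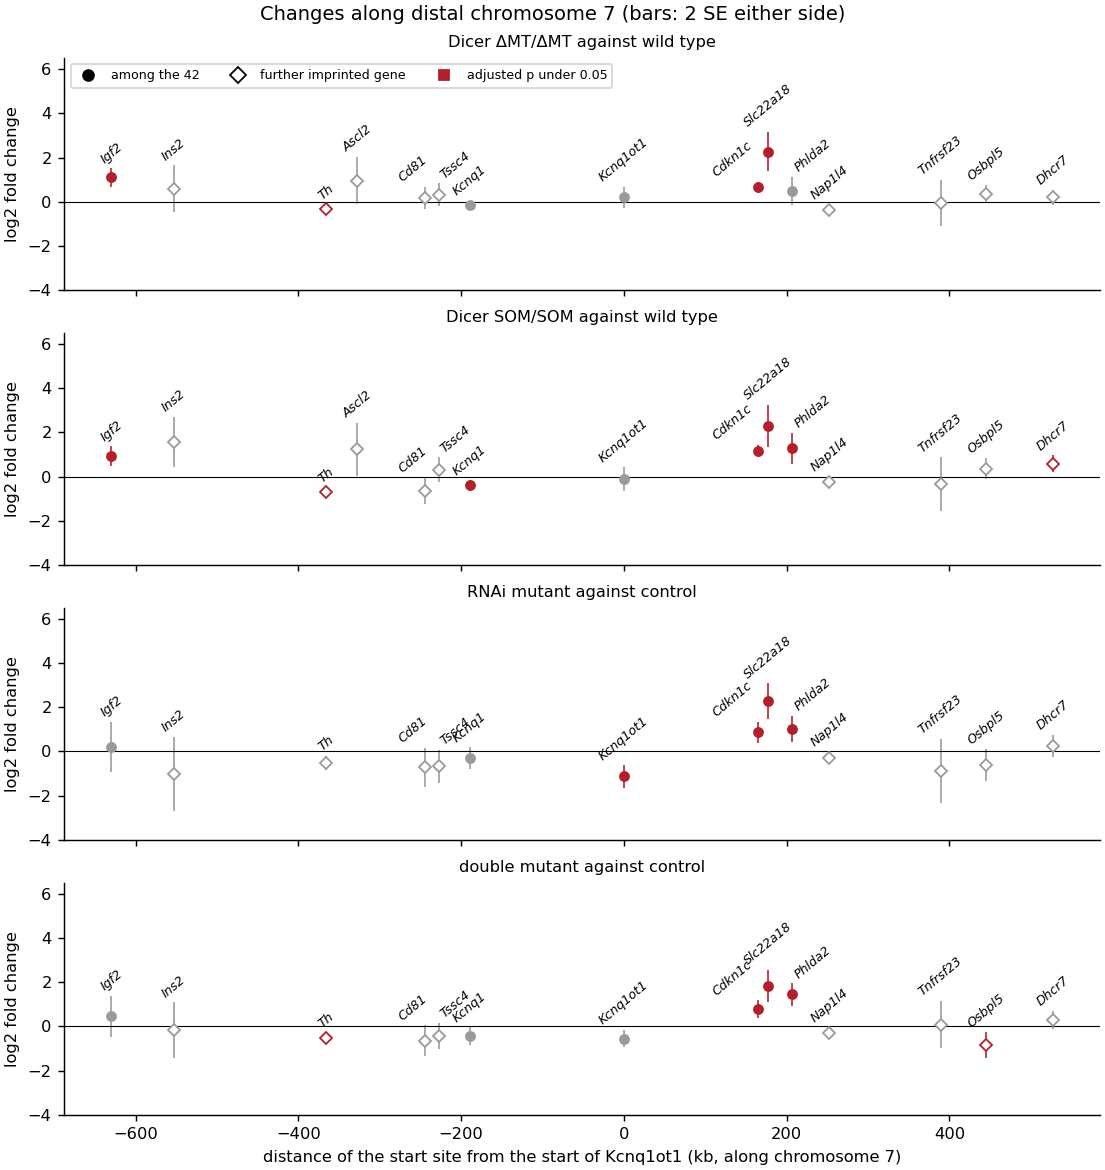
Log2 fold change with bars of 2 SE either side against the distance (kb) of each start site from the start of Kcnq1ot1, for 4 comparisons (panels). Filled circles are among the 42 genes, open diamonds are further imprinted genes, and red marks an adjusted p under 0.05. Cdkn1c, Slc22a18 and Phlda2 lie together at 164.5 to 206.0 kb, above 0 in all 4 panels.

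At the other end of this region, Igf2 (chr7:142650766-142666816) rose in both single-end mutants. It was at 4.97, 5.41 and 3.47 CPM in wild type, 9.95, 9.34, 9.72 and 10.6 CPM in Dicer-ΔMT/ΔMT and 5.98, 10.8 and 9.72 CPM in Dicer-SOM/SOM. None of these homozygous mutants reached down to the wild type samples. The rise was 2.15-fold (log2 fold change 1.10 ± 0.21 (SE), adjusted p = 0.00527) in Dicer-ΔMT/ΔMT and 1.90-fold (log2 fold change 0.92 ± 0.23 (SE), adjusted p = 0.0109) in Dicer-SOM/SOM. The latter was lost without Dicer-SOM/SOM replicate 2 (0.68, adjusted p = 0.0586).

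In the paired-end run Igf2 was at 7.58, 8.40, 1.64 and 7.22 CPM in controls, 8.26 and 6.13 CPM in RNAi mutants and 11.2, 14.0, 3.90 and 4.503 CPM in double mutants. The double mutants of 35 and 40 weeks had more than those of 11 weeks, and the control of 10 weeks had least. The groups overlapped, and the log2 fold change was 0.21 ± 0.57 (SE), adjusted p = 0.878 in RNAi mutants and 0.45 ± 0.47 (SE), adjusted p = 0.562 in double mutants. The change in double mutants was not shown to differ by age (difference, old minus young, 0.71 ± 0.71 (SE), adjusted p = 0.997). H19, the maternally expressed partner of Igf2, stayed at or near 0 in all groups.

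Igf2r (chr17:12682406-12769664) fell in 3 of 4 comparisons with wild type or control, from one of the highest levels of the set. It was at 181, 159 and 163 CPM in wild type, 115, 102, 92.7 and 122 CPM in Dicer-ΔMT/ΔMT and 103, 124 and 83.9 CPM in Dicer-SOM/SOM. In the paired-end run it was at 154, 169, 116 and 156 CPM in controls, 84.0 and 104 CPM in RNAi mutants and 104, 97.3, 92.3 and 64.4 CPM in double mutants. All of these Dicer mutants lay below all wild type or control samples of their run, and control replicate 2 (116 CPM) was the lowest control.

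Igf2r was thus at 0.643-fold of wild type in Dicer-ΔMT/ΔMT (log2 fold change -0.64 ± 0.13 (SE), adjusted p = 0.00866) and 0.621-fold in Dicer-SOM/SOM (-0.69 ± 0.14 (SE), adjusted p = 0.00477). It was at 0.601-fold of control in double mutants (-0.73 ± 0.16 (SE), adjusted p = 0.00559) and 0.633-fold in RNAi mutants (-0.66 ± 0.21 (SE), adjusted p = 0.0574), the last not called. The double mutant call was lost among animals of at most 17 weeks (log2 fold change -0.79, adjusted p = 0.0683). Airn, whose transcription overlaps Igf2r in the opposite direction, was at 0.638 to 1.47 CPM in wild type and 1.65 to 1.83 CPM in controls and was not called in any comparison. Slc22a3, a transporter gene imprinted beside Igf2r in placenta, fell with log2 fold changes of -1.04 (adjusted p = 0.0017) in Dicer-ΔMT/ΔMT and -1.24 (adjusted p = 0.000661) in Dicer-SOM/SOM. It was named after its values were seen.

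In the Peg3 domain, Usp29, a ubiquitin protease gene (chr7:6730583-6967219), fell in 2 comparisons in which Peg3, with which it shares a promoter region, was not called. Usp29 was at 29.0, 30.4 and 24.1 CPM in wild type, 17.5, 14.9, 16.9 and 17.4 CPM in Dicer-ΔMT/ΔMT and 33.0, 23.0 and 19.6 CPM in Dicer-SOM/SOM. All Dicer-ΔMT/ΔMT samples lay below all others, and Dicer-SOM/SOM overlapped wild type. On the log2 scale the change was -0.74 ± 0.16 (SE), adjusted p = 0.01 in Dicer-ΔMT/ΔMT and -0.13 ± 0.17 (SE), adjusted p = 0.632 in Dicer-SOM/SOM. Tested directly, Dicer-SOM/SOM was above Dicer-ΔMT/ΔMT by a log2 fold change of 0.61 ± 0.16 (SE), adjusted p = 0.044, a call lost when any single Dicer-ΔMT/ΔMT replicate or Dicer-SOM/SOM replicate 1 or 2 was left out (adjusted p 0.0501 to 0.144, and 0.36 on the log2 scale without Dicer-SOM/SOM replicate 1).

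In RNAi mutants Usp29 was at 18.8 and 21.1 CPM, below the 28.1 to 38.5 CPM of controls, and double mutants at 26.1, 28.2, 26.3 and 21.2 CPM lay between, just touching the controls. Its fitted log2 fold change was -0.77 ± 0.19 (SE), adjusted p = 0.0162 in RNAi mutants, lost without RNAi mutant 1 (adjusted p = 0.162) or 2 (0.0838) and among animals of at most 17 weeks (-0.73, adjusted p = 0.106). In double mutants it was -0.42 ± 0.15 (SE), adjusted p = 0.0586. Peg3 was at 57.4, 52.7 and 56.1 CPM in wild type and 56.4, 38.5, 33.1 and 52.2 CPM in Dicer-ΔMT/ΔMT, which overlapped. It was at 55.1, 83.7, 53.3 and 63.9 CPM in controls and lower, at 45.5 and 48.9 CPM, in RNAi mutants, but was not called in any comparison (log2 fold changes -0.44 to 0.03). Zim3, which shares 32.3% of the exonic bases of Usp29 on the opposite strand, fell by 0.72 on the log2 scale in Dicer-ΔMT/ΔMT (adjusted p = 0.0138), and counting without strand cannot part these genes. Zim3, too, was named after its values were seen.

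Sgce, which encodes a sarcoglycan, was low but rose in both single-end mutants. It was at 0.506, 0.827 and 0.801 CPM in wild type, 1.15, 1.51, 1.47 and 1.27 CPM in Dicer-ΔMT/ΔMT and 2.11, 1.74 and 1.89 CPM in Dicer-SOM/SOM. The 3 groups did not overlap. The rise was 1.90-fold (log2 fold change 0.92 ± 0.22 (SE), adjusted p = 0.0159) in Dicer-ΔMT/ΔMT, lost without wild type replicate 1 (0.73, adjusted p = 0.0602), and 2.70-fold (log2 fold change 1.43 ± 0.24 (SE), adjusted p = 0.00116) in Dicer-SOM/SOM. Controls had 0.640, 0.733, 1.42 and 0.776 CPM, RNAi mutants 1.64 and 3.15 CPM and double mutants 1.40, 2.80, 1.66 and 1.18 CPM. Control replicate 2 lay within the double mutant range but below both RNAi mutants. Neither paired-end change was called (log2 fold change 1.43 ± 0.43 (SE), adjusted p = 0.0507, and 0.98 ± 0.37 (SE), adjusted p = 0.0776).

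Its neighbour Peg10, a retrotransposon-derived gene that starts head to head with Sgce, was at 6.10, 6.00, 6.604 and 10.9 CPM in controls and 16.3, 14.0, 16.1 and 8.97 CPM in double mutants. Control replicate 3 stood apart from the other controls and overlapped the lowest double mutant. The log2 fold change was 0.91 ± 0.25 (SE), adjusted p = 0.0173, lost within the set of high Gm42418 (0.97, adjusted p = 0.052) and without control replicate 1o (0.0543) or 2o (0.0517). Among animals of at most 17 weeks it was 0.53 (adjusted p = 0.437). RNAi mutants had 10.2 and 7.16 CPM and were not called (log2 fold change 0.23 ± 0.30 (SE), adjusted p = 0.721).

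Snrpn and Snurf, which share a transcript, were higher in Dicer-SOM/SOM than in Dicer-ΔMT/ΔMT, while neither mutant was called against wild type. Snrpn was at 9.92, 12.1 and 9.65 CPM in wild type, 8.11, 9.01, 6.87 and 8.80 CPM in Dicer-ΔMT/ΔMT and 13.2, 12.2 and 19.4 CPM in Dicer-SOM/SOM. Wild type lay between the mutants with no overlap. Between the mutants the log2 fold change was 0.83 ± 0.17 (SE), adjusted p = 0.0152. Snurf lies wholly within Snrpn exons, so its log2 fold change (0.98 ± 0.27 (SE), adjusted p = 0.0481) counts the same reads in part. It was lost without any single sample of either mutant (adjusted p 0.0533 to 0.137). Ube3a, a ubiquitin ligase of the same domain, was at 48.9, 47.7, 65.8 and 58.8 CPM in controls, 36.9 and 38.7 CPM in RNAi mutants and 40.3, 34.6, 41.7 and 34.7 CPM in double mutants. Mutants lay below all controls, but only the double mutants were called (-0.55 ± 0.14 (SE), adjusted p = 0.0117, against -0.55 ± 0.17 (SE), adjusted p = 0.0612 in RNAi mutants). Within the set of high Gm42418 the double mutant change was -0.36 (adjusted p = 0.12), and among animals of at most 17 weeks -0.70 (adjusted p = 0.0538). Antisense Snhg14 shares 16.5% of its exonic bases.

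**Figure D4:**
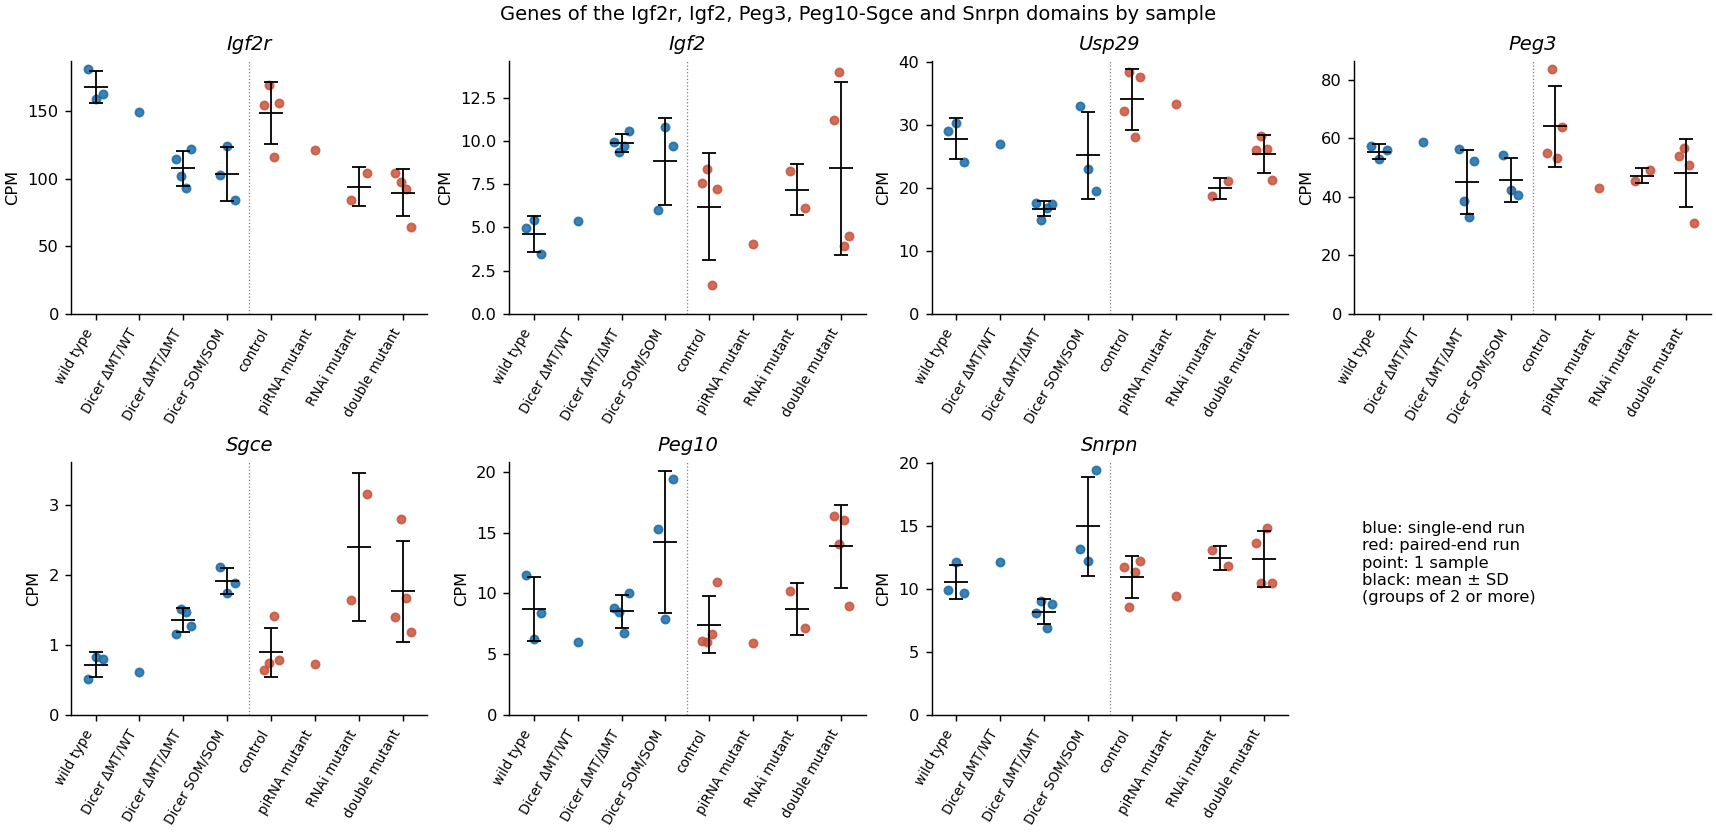
CPM in every sample (points) with mean ± SD (black) for Igf2r, Igf2, Usp29, Peg3, Sgce, Peg10 and Snrpn, in the single-end run (blue, left of the dotted line) and the paired-end run (red). For Igf2r, samples homozygous for a Dicer mutation (64.4 to 124 CPM in both runs) lay below the wild type or control samples of their run. The piRNA mutant lay within the control range, and Peg3 was not called.

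Mest, the most abundant transcript of the set, rose in RNAi mutants. It was at 265, 238, 245 and 271 CPM in controls, 312 and 383 CPM in RNAi mutants and 308, 275, 305 and 317 CPM in double mutants. These Dicer mutants lay above controls, RNAi mutant 2 farthest. On the log2 scale the change was 0.45 ± 0.13 (SE), adjusted p = 0.0414 in RNAi mutants and 0.24 ± 0.11 (SE), adjusted p = 0.134 in double mutants. The RNAi call was lost under 13 of 16 alternatives, the term for the rRNA sets (0.40, adjusted p = 0.0523), the set of high Gm42418 alone (0.38, adjusted p = 0.0625) and leaving out any single library of the comparison (0.0534 to 0.424) among them. In Dicer-SOM/SOM it was at 288, 283 and 224 CPM and overlapped wild type at 267, 277 and 237 CPM. Copg2, whose exons lie antisense to 32.9% of the exonic bases of Mest, was not called in any comparison.

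Blcap, Impact and Zim1 were called in 1 comparison each. Blcap, linked to control of cell division, was at 71.6, 72.1 and 84.9 CPM in wild type and 50.5, 54.6, 67.5 and 58.7 CPM in Dicer-ΔMT/ΔMT. Impact, a regulator of translation, was at 5.80, 6.08 and 6.85 CPM in wild type and 3.63, 3.81, 3.67 and 4.60 CPM in Dicer-ΔMT/ΔMT. Neither gene overlapped between the groups. The log2 fold changes were -0.40 ± 0.12 (SE), adjusted p = 0.0461 for Blcap and -0.67 ± 0.19 (SE), adjusted p = 0.0408 for Impact, each lost without any single wild type sample and without 3 of the 4 Dicer-ΔMT/ΔMT samples (adjusted p 0.0779 to 0.168).

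Zim1, a zinc finger gene of the Peg3 domain, was at 7.09, 5.55, 5.92 and 5.60 CPM in Dicer-ΔMT/ΔMT and 10.5, 8.58 and 7.11 CPM in Dicer-SOM/SOM. The mutants nearly met at 7.09 and 7.11 CPM. The log2 fold change between them was 0.56 ± 0.14 (SE), adjusted p = 0.0417, lost without Dicer-ΔMT/ΔMT replicate 2, 3 or 4 or Dicer-SOM/SOM replicate 1 or 2 (adjusted p 0.0681 to 0.149).

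Slc38a4, an amino acid transporter gene, stayed under a mean of 1 CPM and outside the rule for full description. It was at 0.0654 to 0.241 CPM in wild type, 0.125 to 0.291 CPM in Dicer-ΔMT/ΔMT and 0.455 to 1.10 CPM in Dicer-SOM/SOM, and Dicer-SOM/SOM was called against both. Of abundant genes that were not called, Gnas was at 143 to 178 CPM in wild type and 141 to 192 CPM in controls, and H13 at 109 to 119 and 61.4 to 75.6 CPM. Copg2 was at 64.3 to 73.5 and 61.4 to 82.3 CPM, Grb10 at 64.4 to 71.3 and 40.7 to 67.0 CPM, and Peg3 at 52.7 to 57.4 and 53.3 to 83.7 CPM. Commd1, which acts in copper handling, was at 18.6 to 18.8 and 12.9 to 18.6 CPM, and Plagl1, a zinc finger transcription factor, at 10.7 to 16.9 and 9.08 to 11.2 CPM. The remaining tested genes, such as Meg3, Rian, Zdbf2 and Dcn, were below 10 CPM in wild type and were not called.

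The Dicer-SOM/SOM and Dicer-ΔMT/ΔMT mutants were compared directly, because the ΔMT allele can leave some truncated Dicer. Of the 34 genes, 6 were higher in Dicer-SOM/SOM (background 4.03%) and 0 lower (background 3.32%, 0 also by DESeq2). An unadjusted p under 0.05 in either direction was found for 12 of the 34, beside 5390 of all 23151 genes tested. The 6 called higher were Cdkn1c (log2 fold change 0.50 ± 0.13 (SE), adjusted p = 0.0368), Usp29, Zim1, Snrpn, Snurf and Slc38a4. The Cdkn1c call was lost without any single Dicer-ΔMT/ΔMT replicate or Dicer-SOM/SOM replicate 1 or 2 (adjusted p 0.0504 to 0.13). Slc22a18 did not differ by more than its error between the mutants (log2 fold change 0.02 ± 0.42 (SE), adjusted p = 0.99). The blood marker sum also differed between these mutants, as given above, and its part in these differences was not tested. Of its 5 markers tested singly, 2 were called lower in Dicer-SOM/SOM and 0 higher, with a median log2 fold change of 0.25.

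The effect of the added Mili mutation was read from double mutants against RNAi mutants. The double mutants were 11, 11, 35 and 40 weeks old, and 2 were in the set of high Gm42418 and 2 were not. The RNAi mutants were 13 and 17 weeks old, both in that set. By edgeR's quasi-likelihood test 0 of 34 genes were higher (background 0.31%) and 0 lower (background 0.00476%). An unadjusted p under 0.05 was found for 2 of 34, beside 1004 of all 20989 genes tested. DESeq2 called 0 in either direction as well. On the log2 scale Slc22a18 differed by -0.43 ± 0.40 (SE), adjusted p = 0.9997, Cdkn1c by -0.09 ± 0.24 (SE), adjusted p = 0.9997 and Phlda2 by 0.42 ± 0.30 (SE), adjusted p = 0.9997. The double mutant effect was compared between females over 30 weeks and younger ones, with 2 samples per group and age. No gene of the set was called by edgeR, beside 0.00485% of all 20626 genes tested. At an unadjusted p under 0.05 stood 1 of 34, Dcn, chosen after its value was seen, beside 1030 of all 20626 genes.

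Dicer-SOM/SOM was sequenced in both runs, each with its own controls and a different Mili background. Of the 8 genes called in the single-end run, 8 changed in the same direction in RNAi mutants and 3 were called there too, namely Slc22a18, Cdkn1c and Phlda2. Over all genes tested in both runs, 92.2% of the 6195 called in the single-end run had the same sign, and 1847 of these were called in RNAi mutants too. Across the 34 genes Pearson's r between the log2 fold changes was 0.83 and Spearman's rho 0.65, against 0.64 and 0.62 across 20089 genes. These points share libraries and are not independent. No gene of the set was called for a difference between the runs in a joint fit of both, beside 0.00426% of 23454 genes. At an unadjusted p under 0.05 stood 3 of 34, beside 1839 of all 23454 genes tested. The 3 were Kcnq1ot1, Mest (-0.45 ± 0.19 (SE), adjusted p = 0.605) and Usp29 (0.61 ± 0.28 (SE), adjusted p = 0.631), named after their values were seen.

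**Figure D5:**
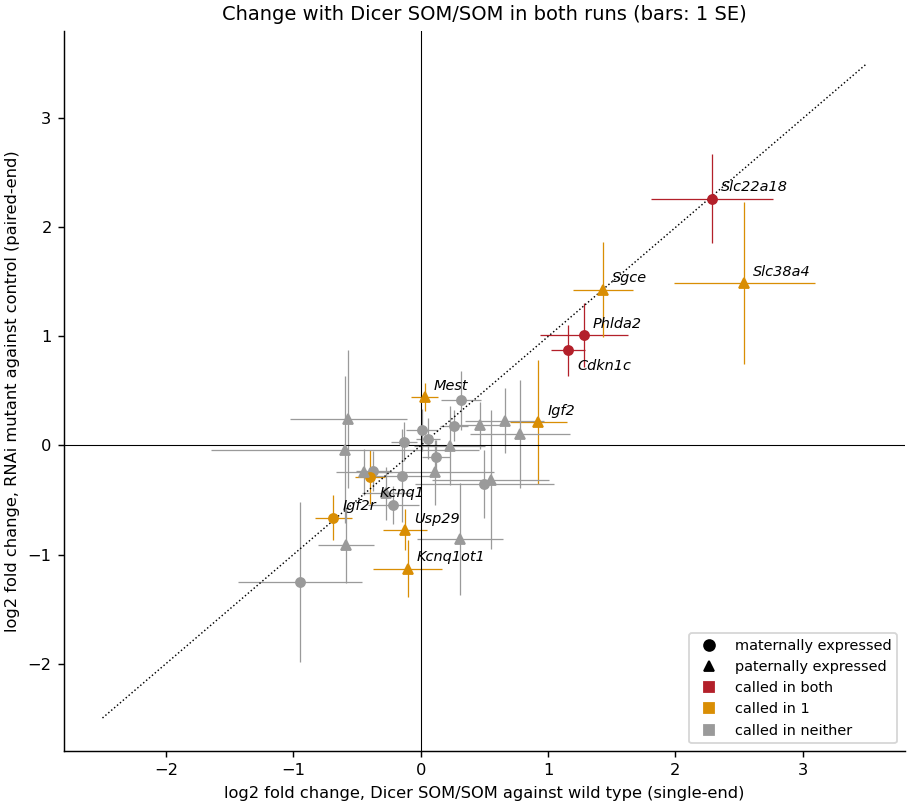
Log2 fold change of Dicer-SOM/SOM against wild type (x, single-end) and of RNAi mutants against controls (y, paired-end), with bars of 1 SE, for the 34 genes tested. Slc22a18, Cdkn1c and Phlda2 (red) were called in both, and Kcnq1ot1 and Usp29 lie below the dotted line of equal change, near 0 on the x axis.

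The single piRNA mutant had no replicate and no test. Of the 34 genes, 23 lay within the range of the controls, 2 above (Gnas and Zdbf2) and 9 below. Slc22a18 was at 0.501 CPM and Cdkn1c at 9.02 CPM, within the control ranges of 0.221 to 0.555 and 8.27 to 13.9 CPM. Igf2r at 121 CPM and Phlda2 at 5.79 CPM were within range as well, and Kcnq1ot1 at 4.29 CPM was below. The single Dicer-ΔMT/WT sample had 14 of 34 genes within the range of wild type, 7 above and 13 below. Its Slc22a18 (0.733 CPM), Cdkn1c (7.91 CPM), Igf2 (5.39 CPM) and Usp29 (27.0 CPM) lay in the wild type range. Its Igf2r (149.6 CPM) was between wild type and Dicer-ΔMT/ΔMT. A lone sample often falls outside the range of so few others. The share of all genes outside these ranges was not worked out for either sample, so the counts are no measure of a genotype effect.

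Genes that act on imprints and a wider list of imprinted genes were set beside these. Of 14 genes for setting or keeping imprints, 0 rose and 1 fell in Dicer-ΔMT/ΔMT, 2 rose and 2 fell in Dicer-SOM/SOM, 1 rose and 0 fell in RNAi mutants, and 1 rose and 4 fell in double mutants. Over all genes tested, the shares that rose and fell were 8.06% and 7.3%, then 14.5% and 14.2%, 7.07% and 3.64%, and 12.3% and 8.84% in the same order of comparisons. Kdm1b, a histone demethylase needed for maternal methylation marks, rose in Dicer-SOM/SOM (log2 fold change 0.58 ± 0.16 (SE), adjusted p = 0.019) and double mutants (0.61 ± 0.15 (SE), adjusted p = 0.00787). Suz12, a subunit of Polycomb complex PRC2, fell by 0.64 in Dicer-SOM/SOM (adjusted p = 0.00199) and by 0.60 in double mutants (adjusted p = 0.00299) on the log2 scale. The de novo methyltransferase Dnmt3a fell by 0.58 in double mutants (adjusted p = 0.00419).

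Of 33 tested of 42 further imprinted genes, 2 rose and 5 fell in Dicer-ΔMT/ΔMT, 5 rose and 6 fell in Dicer-SOM/SOM, 1 rose and 1 fell in RNAi mutants and 0 rose and 5 fell in double mutants, beside the same shares over all genes. The actin nucleator gene Cobl fell in all 4, with log2 fold changes of -2.38, -3.87, -2.52 and -2.88 in the same order, from a mean of 26.6 CPM in wild type and 22.4 CPM in controls. Dio3, which inactivates thyroid hormone, rose in both single-end mutants (log2 fold change 1.46 for Dicer-ΔMT/ΔMT, 1.83 for Dicer-SOM/SOM). Pon2, a lactonase gene near Sgce and Peg10, fell by 3.63 on the log2 scale in Dicer-SOM/SOM.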

How the data were processed

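RNA-seq of 22 samples was used, 11 single-end and 11 paired-end. The authors aligned reads to mm10 with STAR 2.5.3a and deposited estimated counts per GENCODE gene from featureCounts, unstranded, with reads that map to several genes or places divided among them. These expected counts need not be whole. Here they were rounded and fitted in edgeR 4.0.16 (R 4.3.3) by the quasi-likelihood test with TMM scaling. The filter was filterByExpr (minimum count 10, total 15), with Benjamini-Hochberg adjustment at 0.05. Each run was fitted apart, except for the difference between the runs in the change with Dicer-SOM/SOM. That came from a joint fit of wild type, Dicer-SOM/SOM, control and RNAi mutant samples, with a coefficient for each group. No fit used the lone Dicer-ΔMT/WT library, which was placed on the same scale. Scripts were tested on simulated data. Sums of markers were compared by exact permutation. Divided reads make copies of a gene family uncertain.

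Members and gene lists were chosen with earlier results of these data known. Every sample value is given for members called in at least 1 comparison with a mean of at least 1 CPM in a compared group, and ranges for uncalled members of at least 10 CPM. From the other lists, at most the 3 called genes with the largest change per comparison were named. Alternatives were DESeq2 1.42.0, other size factors and filters, a replicate block, age, and each replicate left out. The alternatives for the rRNA sets were added after values were seen.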

Additional observations from a re-analysis of the deposited data

Results flagged for a closer look

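In 89 groups of 4 samples, the gap of the highest or lowest sample to its nearest neighbour, as a share of the range, was set against Dixon's critical value. Chance alone passes about 1 group in 20. Igf2 in control replicate 2 (1.64 CPM, share 0.907) lay below the other controls, Blcap in the same library (80.3 CPM, share 0.859) above them, and Peg10 in control replicate 3 (10.9 CPM, share 0.841) above them. Snurf was low in control replicate 2o (0.800 CPM, share 0.836) and in double mutant replicate 2 (0.711 CPM, share 0.892). Dcn was set apart in Dicer-ΔMT/ΔMT replicate 2 (1.51 CPM, share 0.905).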

How the results depend on the processing

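Of 32 calls of a gene in a comparison, the 2 of Slc38a4 (under 1 CPM) not counted, 11 held under every alternative, 21 were lost under at least 1 and 0 changed sign. Those that held were Usp29, Igf2, Cdkn1c, Slc22a18 and Igf2r in Dicer-ΔMT/ΔMT, Sgce, Cdkn1c, Slc22a18 and Igf2r in Dicer-SOM/SOM, Slc22a18 in RNAi mutants and Phlda2 in double mutants. Counts over all genes tested under the same setting follow in brackets. With DESeq2, 4 members were lower in Dicer-SOM/SOM (3637 of 23133), 4 in RNAi (1265 of 20981) and 4 in double mutants (2234 of 20981). Without a filter, 2 were lower in Dicer-ΔMT/ΔMT (1241 of 39390) and 2 higher in Dicer-SOM/SOM than in Dicer-ΔMT/ΔMT (793 of 39390). A filter at 5 CPM left 1 lower in Dicer-SOM/SOM (2153 of 11044). Fitting only the groups compared gave 1 there (2259 of 21996) and 3 higher in Dicer-SOM/SOM than in Dicer-ΔMT/ΔMT (775 of 22175). An age term left 1 higher in RNAi mutants (1239 of 20989). Animals of at most 17 weeks gave 2 higher and 1 lower in RNAi mutants (951 and 402 of 19709). In double mutants they gave 1 higher and 0 lower (1397 and 535 of 19709). The term for the rRNA sets gave 4 lower in RNAi mutants (850 of 20989). The set of high Gm42418 alone gave 4 lower in RNAi (1017 of 20022) and 1 lower in double mutants (1233 of 20022). Numbers called over all genes moved with the setting too, also when a replicate was left out. The cause of these shifts was not tested. Leaving out 1 replicate gave 3 to 4 higher and 2 to 3 lower in Dicer-ΔMT/ΔMT, 5 to 6 and 1 to 4 in Dicer-SOM/SOM, 1 to 4 and 0 for Dicer-SOM/SOM against Dicer-ΔMT/ΔMT, 1 to 2 and 0 to 3 in RNAi mutants, 3 to 6 and 2 to 4 in double mutants, and 0 for double against RNAi mutants. Where 1 RNAi mutant was left, it was assumed to vary like the other groups. Deviations of same-numbered samples correlated weakly (r -0.03 to 0.05 single-end, -0.07 to 0.18 paired-end). Differently numbered samples were not correlated for comparison, so whether the numbers pair the samples was not settled. Controls and double mutants numbered 1o shared the set of high Gm42418, and those numbered 2o and 2 shared the other set. RNAi mutant 2 was in the high set. With a replicate block, 0 members were higher in Dicer-SOM/SOM than in Dicer-ΔMT/ΔMT (all genes: 627 of 23151) and 0 lower in RNAi mutants (334 of 20989). Depth limits the low members most, and Dicer-SOM/SOM replicate 3 above all.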
